A study of Mus musculus with 14 samples.

Results

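Monocyte and dendritic progenitors were chosen by a gate on their own counts. A day 17 cell entered it when 3 or more of 7 genes passed 10 counts, the genes being Ly86, Irf8, Csf1r, F13a1, Ccr2, Ms4a6c and Fn1 (the present genes), and no more than 1 of the 4 neutrophil genes Cebpe, Fcnb, S100a8 and Trem3 (the absent genes) did so. Of 713 day 17 cells with at least 500 detected genes and 10000 counts, 90 passed (12.6%), and the series held 1010 such cells in all. The series followed adult mouse blood stem cells in the steady state by inducible lineage tracing. Lineage-negative cells that carried the reporter, called Tom in the labels, were sorted singly into 96-well plates, and a modified Smart-seq2 protocol read the 3′ end of their polyadenylated transcripts. The gated cells came from mouse m4528 (30 cells, 4 plates), mouse m605 (20 cells, 2 plates), mouse m606 (27 cells, 2 plates) and 1 plate of m605 and m606 together (13 cells). They were set against the 623 other day 17 cells of the same mice, and all these cells share the sort and the day. The sources used here give neither the strain and age of the mice, the driver of the reporter, nor the event from which days were counted. The gate used the counts of the 11 genes, so their values describe the choice and their p-values are not given. These genes stayed in the fits and in the counts over all genes, for edgeR and DESeq2 alike.

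Monocytes and dendritic cells arise in the bone marrow from granulocyte-monocyte and dendritic progenitors, under the transcription factors Irf8 and Spi1 (PU.1). Progenitors that keep Irf8 high follow the monocyte and dendritic paths, whereas Cebpe and Gfi1 accompany the neutrophil path. Monocyte progenitors carry the receptor for macrophage colony-stimulating factor (Csf1r) and the chemokine receptor Ccr2, which lets monocytes leave the marrow. Plasmacytoid dendritic cells, the main producers of type I interferon, carry the lectin Siglech.

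Totals ran from 25482791 to 64257177 counts per day 17 mouse. The gated cells were deeper than the others in every mouse. Their median cell held 303020, 142066 and 194882 counts in mice m4528, m605 and m606, against 145933, 112148 and 107896 counts in the other cells. After each cell was thinned to 10000 counts, the median gated cell had 2384, 2247 and 2795 detected genes in the same order of mice, against 1823.5, 2245 and 2522.5 (m4528, m605, m606) in the other cells, so the numbers of genes were close in m605. A threshold in counts favours deep cells, and the part of depth in the results was not tested beyond the thinned sums given below. Mouse m4528 is the only day 17 mouse of the first of the 2 deposited tables and differs from m605 and m606 in sex-linked genes, so mouse and table cannot be told apart. Well barcodes are reused: all 713 cells share theirs with a cell on another day 17 plate, with 96 distinct barcodes in all.

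The share of gated cells was close between the mice. It was 10.4% in m4528 (30 of 288, exact Clopper-Pearson 95% interval 7.14 to 14.5), 13.99% in m605 (20 of 143, 8.76 to 20.8) and 14.3% in m606 (27 of 189, 9.63 to 20.1). The mean was 12.9% ± 2.15 (SD, n = 3 mice), and the 3 intervals overlap. Single plates ran from 6.10% (plate 7 of m4528) to 16.8% (plate 5 of m606), and plate 6 of m4528 held 16.5%, so plates of 1 mouse differed as widely as plates of different mice. Intervals cover counting error only, and the sort gate can set the shares. At the earlier days the same gate held 1 of 190 cells in mouse m4539 (day 3, 0.526%, interval 0.0133 to 2.90) and 3 of 107 cells in mouse m4533 (day 10, 2.80%, 0.582 to 7.98). There was 1 mouse at each of these days, so the difference between days was not tested. The 1 cell of day 3 passed all 7 present genes, from 28 counts of Fn1 to 907 of F13a1, and held 1203428 counts in all. The 3 cells of day 10 had 6 present genes each, 352 to 959 counts of Ly86, 392 to 1662 of Irf8 and none of Siglech.

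**Figure D1:**
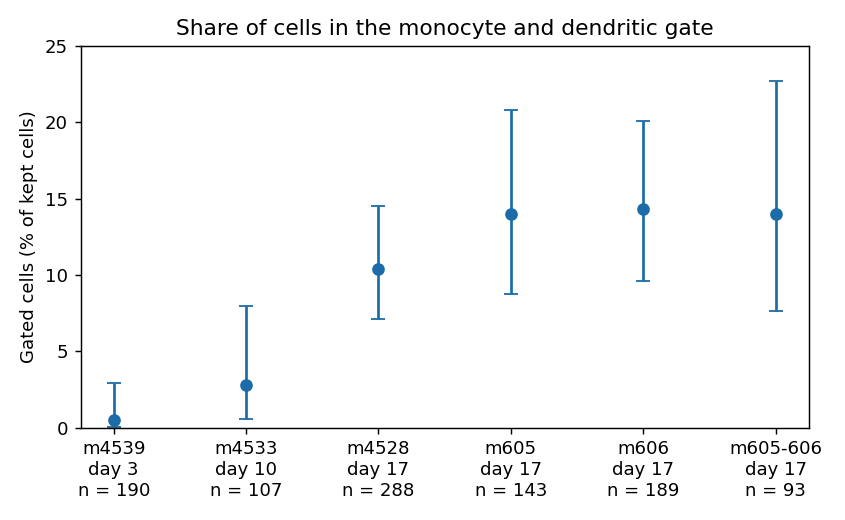
Share of kept cells in the monocyte and dendritic gate (y axis, percent) for each mouse and day (x axis), with the number of kept cells. Points are shares and bars exact 95% intervals: the day 17 samples lie between 10.4% and 14.3%, day 10 at 2.80% and day 3 at 0.526%.

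The present genes were held by the gated cells to different extents. Ms4a6c, a membrane-spanning gene of monocytes, passed 10 counts in 89 of the 90 gated cells, Ly86, the partner of the Toll-like receptor homologue Cd180, in 86, and Irf8 in 82. F13a1, a clotting factor subunit made by monocytes, passed in 70, Csf1r and Ccr2 in 60 each, and Fn1, the fibronectin gene, in 18. The gate needs 3 present genes: 10 gated cells had exactly 3, 19 had 4, 19 had 5, 30 had 6 and 12 had all 7.

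Levels of the present genes are given as CPM (counts scaled to a common total) of the summed cells of a mouse. Irf8 stood at 1097, 599 and 968 CPM in the gated cells of m4528, m605 and m606, against 155, 45.4 and 48.1 CPM in the other cells. Ms4a6c stood at 1538, 1910 and 1677 CPM in the gated cells of m4528, m605 and m606, against 210, 129 and 53.9 CPM in the other cells. Both genes belong to the gate's rule, so the separation of the groups follows from the choice of cells. F13a1 was highest in m4528, with 1821, 541 and 867 CPM in the gated cells of m4528, m605 and m606, against 246, 34.7 and 34.5 CPM in the other cells. Ccr2 likewise was highest in m4528, with 385, 177 and 173 CPM in the gated cells of m4528, m605 and m606, against 33.2, 5.77 and 0.883 CPM in the other cells. Fn1 stood at 203, 110 and 43.7 CPM in the gated cells of the same mice. It passed in 11 of 30 gated cells of m4528, against 3 of 20 in m605 and 3 of 27 in m606. On GRCm38.p6, Irf8 lies on chromosome 8 (120736358 to 120756694), and Ly86 (37345345 to 37419036) and F13a1 (36867178 to 37050244) lie near each other on chromosome 13.

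The gate's edge showed what it takes and what it leaves. The 10 cells just inside it, with 3 present genes, mostly held Ly86, Irf8 and Ms4a6c (9 of 10 each), at medians of 801, 996 and 583 CPM, and 1 of 10 held F13a1. The 19 cells just outside it, with 2 present genes, held Irf8 and Ms4a6c in 12 each and Ly86 in 6, at medians of 278, 203 and 13.2 CPM. A further 29 cells had at least 3 present genes but more than 1 absent gene. These left-out cells had a median of 727 CPM of Irf8 and 901 CPM of F13a1, and all 29 passed on Trem3, so monocyte and neutrophil genes occurred in the same cells. Among the gated cells 42 held 1 absent gene and 48 held none. The 1 absent gene was Trem3, a myeloid receptor, in 28 cells, S100a8 in 8 cells, all of m4528, and Cebpe and Fcnb in 3 cells each.

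Granule gene levels varied widely among the gated cells, with cells at levels between high and low. Mpo, the myeloperoxidase of azurophil granules, passed 10 counts in all 90 gated cells, but also in all 112 cells of an erythroid gate (3 or more of 5 erythroid genes over 10 counts), at a median of 363 CPM. Mpo at that level in a single cell cannot be told apart from background. Above 2000 CPM, a value set after the cells had been seen, lay 53 of the 90 gated cells (18 of 30 in m4528, 10 of 20 in m605, 18 of 27 in m606 and 7 of 13 on the mixed plate). The median gated cell held 5059 CPM of Mpo, with quartiles at 614 and 8803. Elane (neutrophil elastase) and Ctsg (cathepsin G) also ranged widely, with quartiles at 93.9 and 2763 CPM for Elane and 191 and 3417 CPM for Ctsg. The median gated cell held 473 CPM of Elane. The erythroid gate's medians were 90.8 CPM of Elane and 85.7 CPM of Ctsg. The lower quartile of Elane in the gated cells thus lay at the background level. Some cells above 2000 CPM of Mpo also held Elane near that level.

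**Figure D2:**
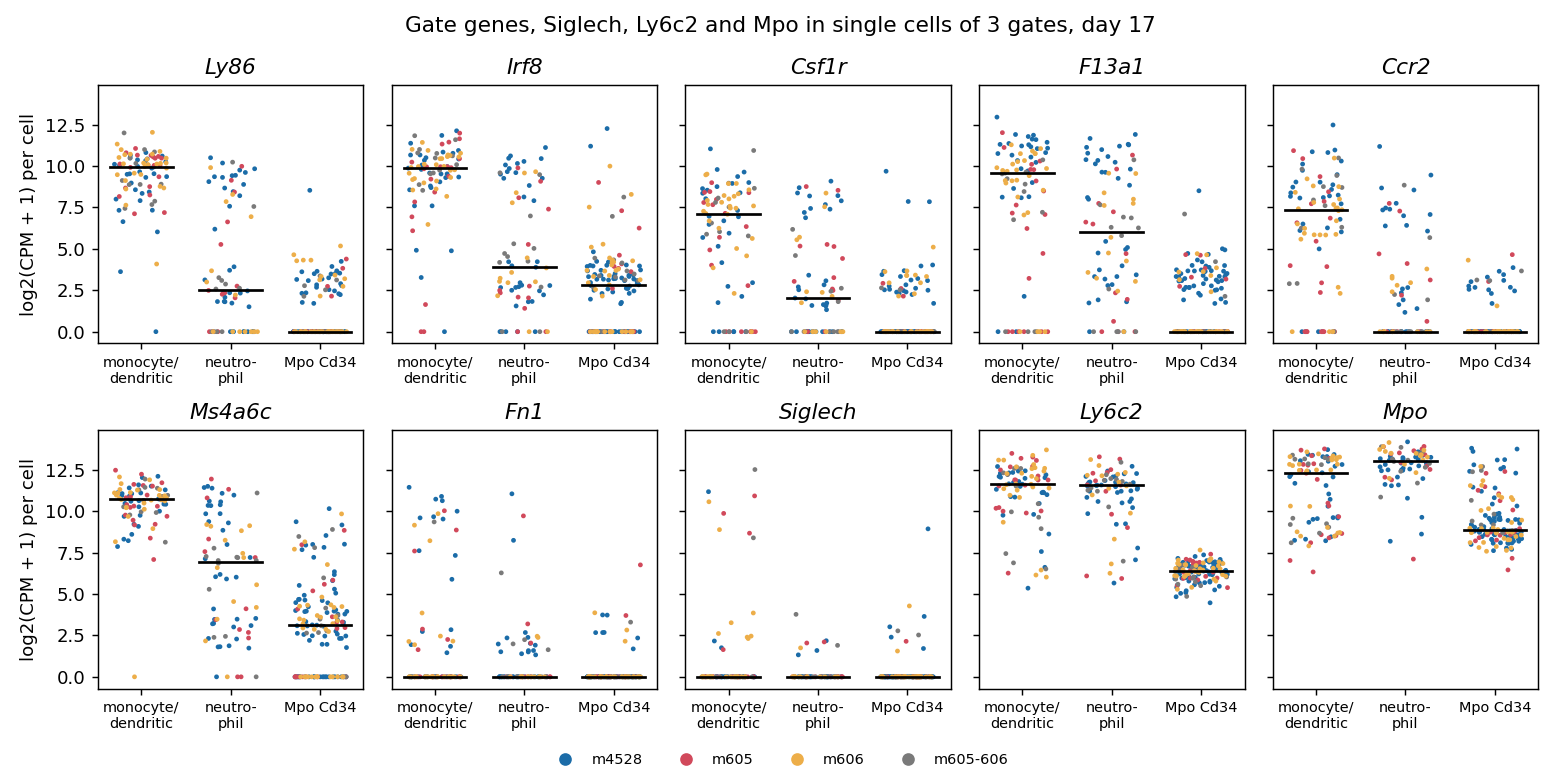
Gate genes, Siglech, Ly6c2 and Mpo in single day 17 cells, as log2(CPM + 1), for the monocyte and dendritic gate (90 cells), the neutrophil gate (76) and the Mpo and Cd34 gate (146). Points are cells coloured by mouse and lines are medians. Mpo runs from high to low in the monocyte and dendritic gate, with cells between. Most cells of the Mpo and Cd34 gate lie low, at a median of 457 CPM.

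The cells with high Mpo were largely those with Cd34, the sialomucin of early progenitors. Cd34 passed 10 counts in 54 of the 90 gated cells, of which 47 lay above 2000 CPM of Mpo, and of the 36 others 6 did. This split was chosen after the data had been seen, on the cells it describes, so its values carry no test. With Cd34, Mpo stood at 7364, 6355 and 7572 CPM in m4528, m605 and m606, against 2566, 2446 and 572 CPM without it. Ctsg, Elane and Ms4a3, a gene of granulocyte-monocyte progenitors, lay in the same direction in all 3 mice. Ms4a3 stood at 1456, 1383 and 1142 CPM with Cd34 in m4528, m605 and m606, against 591, 288 and 240 CPM without it.

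Several genes had the opposite order. Lgals3 (galectin-3) stood at 287, 519 and 157 CPM with Cd34 in m4528, m605 and m606, against 2663, 2737 and 3079 CPM without it. Ctss, the cathepsin that trims the MHC class II invariant chain, stood at 330, 161 and 301 CPM with Cd34, against 1035, 683 and 1269 CPM without it. Klf4, a transcription factor of monocyte differentiation, passed 10 counts in 6 of 54 cells with Cd34, against 18 of 36 without it. The groups do not overlap for Lgals3 or Ctss. Fn1 passed in 2 of 54 cells with Cd34, against 16 of 36 without it. Fcgr3, an Fc receptor, did not follow this order. It passed in 34 of 54 cells with Cd34, against 16 of 36 without Cd34. H2-Ab1, of MHC class II, passed in 13 of 54 cells with Cd34, against 3 of 36 without it, but its CPM order differed between mice. F13a1 and Irf8 followed the order in CPM but not in the share of cells passing. F13a1 stood at 1741, 484 and 821 CPM with Cd34 in m4528, m605 and m606, against 1929, 686 and 1118 CPM without it. It passed in 46 of 54 cells with Cd34, against 24 of 36. Irf8 stood at 1095, 443 and 858 CPM with Cd34, against 1099, 996 and 1560 CPM without it, nearly level in m4528. It passed in 50 of 54 cells with Cd34, against 32 of 36. The cells with Cd34 were deeper (median 257240 counts, against 135146 without it), and the part of depth in this split was not tested. Mki67, a marker of dividing cells, passed in 25 of 54 cells with Cd34 and in 20 of 36 without it.

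**Figure D3:**
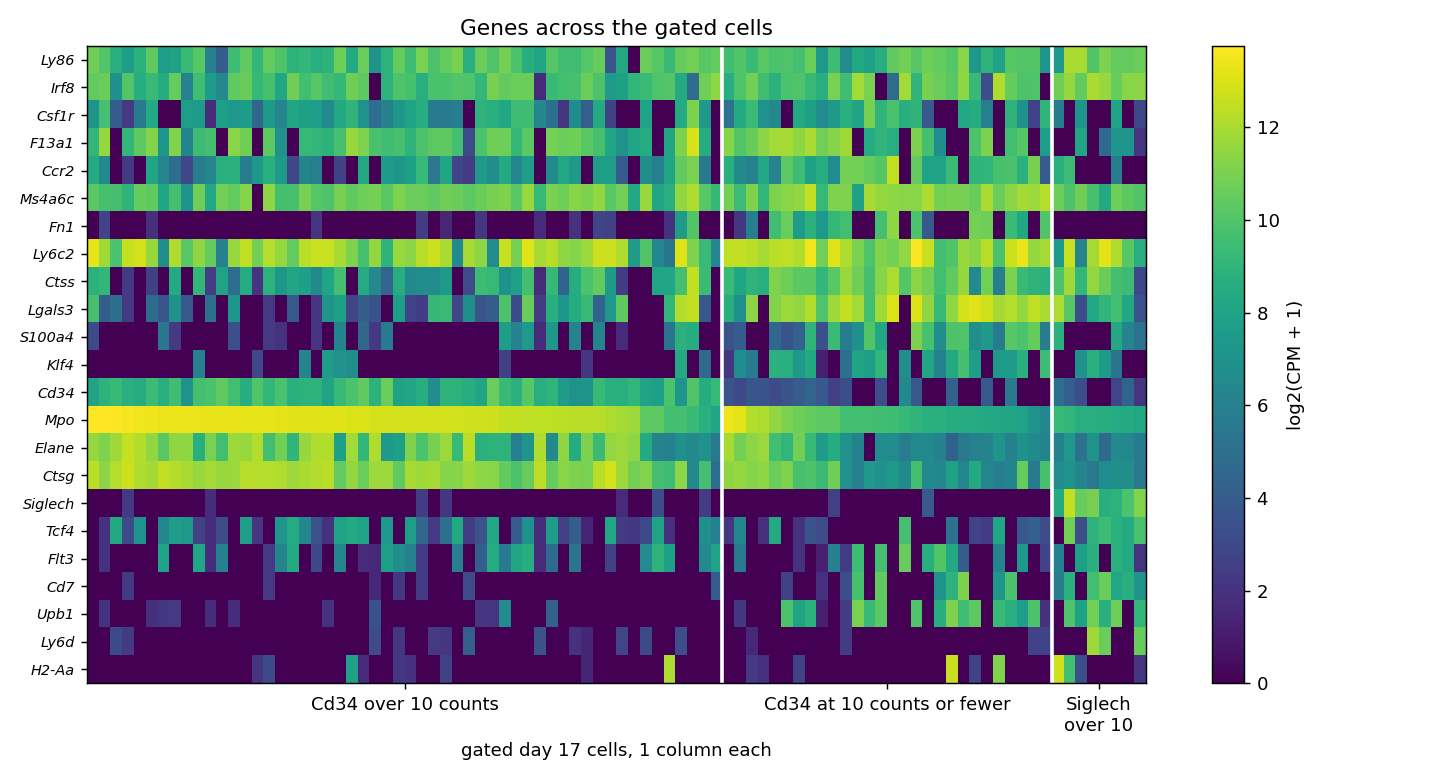
Genes (rows) across the 90 gated day 17 cells (columns), colour giving log2(CPM + 1). Cells are divided by white lines into those with Cd34 over 10 counts (54 cells), those at 10 counts or fewer, and the 8 cells with Siglech over 10 counts, all of which had at most 3 counts of Cd34; within each division cells run from high to low Mpo.

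Siglech marked a small set inside the gate. More than 10 counts were found in 8 of the 90 gated cells (8.89%, exact interval 3.92 to 16.8): 1 of 30 in m4528, 3 of 20 in m605, 2 of 27 in m606 and 2 of 13 on the mixed plate. The other cells held it in 4 of 623 (0.642%, 0.175 to 1.64), each of which had 2 present genes and so lay at the gate's edge. A further 9 gated cells had 1 or 2 counts. No cell of the neutrophil gate passed (0 of 76, exact upper limit 4.74%), nor did any of the 112 erythroid gate cells.

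The 8 Siglech cells differed among themselves in the other genes of plasmacytoid cells. Their Siglech counts were 683 in m4528, 92, 87 and 16 in m605, 174 and 75 in m606, and 357 and 31 on the mixed plate. Of the gate genes, which chose these cells, all 8 held Irf8 (126 to 784 counts), Ly86 (16 to 481) and Ms4a6c (13 to 302), Csf1r passed 10 counts in 2 and Fn1 was at 0. Tcf4, the transcription factor that drives the plasmacytoid fate, passed in 6 of the 8 and in 32 of all 90 gated cells. The surface gene Cd7 passed in 6 of the 8 and in 13 of the 90, and Upb1 (beta-ureidopropionase) in 6 of the 8 and 22 of the 90. Ly6d passed in 3 gated cells, all among the 8, with 442, 160 and 64 counts. Flt3 passed in 4 of the 8, with 19 to 69 counts, and Bst2, a surface gene of plasmacytoid cells, had at most 4 counts. Their Mpo was low, at 15 to 89 counts a cell, and Cd34 reached at most 3 counts. Ly6c2, a monocyte marker, was not absent from them and ranged from 8 to 699 counts.

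One of the 8 cells stood apart. On the mixed plate, a cell with 31 Siglech counts held 652 counts of H2-Aa and 70 of Cd74, the MHC class II genes, with 242 of Id2, which 1 other of the 8 cells held, and 48 of Batf3, transcription factors of conventional dendritic cells. It had 0 counts of Tcf4 and, like others of the 8, of Ly6d. Another of the 8, also on the mixed plate, held 47 counts of H2-Aa and 9 of Cd74. The label of the gate thus fits unevenly. Of the 25 monocyte markers, 21 passed 10 counts in at least 10% of the gated cells, against 16 in the neutrophil gate and 9 in all other cells. Of the 22 dendritic markers found in both tables, 10 did so in the gated cells, against 5 in the neutrophil gate and 2 in all other cells. The threshold favours deep cells, and the gated cells were deeper than all others in each mouse.

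The first comparison set the gated cells against all other day 17 cells and asked which other genes went with the gate. Monocyte, lysosome and Fc receptor genes were higher in the gated cells, while stem cell, megakaryocyte, erythroid and mast cell genes were lower. No gene passed the test. edgeR's quasi-likelihood test on sums per mouse, with mouse as block, called 0 of 14100 genes at an adjusted p under 0.05 (percent called 0), and the lowest adjusted p, 0.0528, was shared by 31 genes. At an unadjusted p under 0.05 lay 2434 genes (17.3%), 1100 higher and 1334 lower, of which 9 belong to the gate's rule. DESeq2 called 1783 genes, 768 higher and 1015 lower. Since the gate and the sums use the same cells, these values describe what accompanies the gate genes and are no independent evidence of the cells' type. With every cell thinned to 10000 counts before summing, an alternative added after the data were seen, edgeR called 821 genes.

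The lists were read by direction, unadjusted p and median, beside the 7.80% of all genes that were higher and the 9.46% that were lower at an unadjusted p under 0.05, and a median log2 change over all genes of -0.05. Of 24 tested monocyte genes 21 were higher and 2 lower, with a median of 3.03. The lysosome and cathepsin list had 18 of 22 higher and none lower (median 1.60). For pattern recognition and Fc receptors the count was 15 of 20 higher (median 2.30), and for the NADPH oxidase 6 of 6 (median 1.83). The NADPH oxidase genes summed to 2711 to 3498 CPM in the gated cells, but also to 1714 to 3292 CPM in the neutrophil gate. Dendritic genes were higher for 9 of 17 (median 3.14), and 9 of 17 homing and adhesion genes were higher (median 1.61). MHC class II genes were higher for 3 of 9 (median 1.5).

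**Figure D4:**
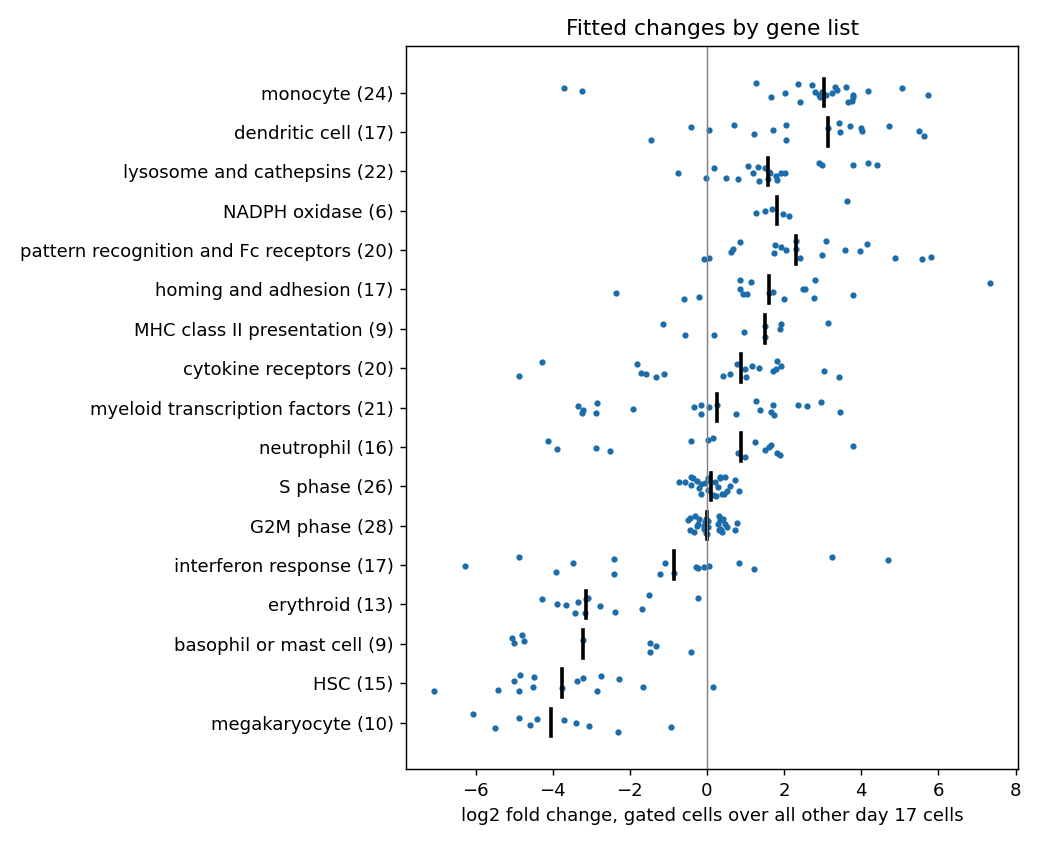
Fitted log2 change of each tested list gene (points), gated cells over all other day 17 cells, with list medians (bars) and the number of tested genes in brackets. Monocyte, dendritic and pattern recognition medians lie at 3.03, 3.14 and 2.30, cell cycle medians near 0, and HSC and megakaryocyte medians at -3.76 and -4.05; no gene passed at an adjusted p under 0.05.

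Lyz2 and Cst3 were among the 31 genes with the lowest adjusted p. Lyz2, the lysozyme of monocytes, stood at 3566, 1814 and 1288 CPM in the gated cells of m4528, m605 and m606, against 664, 295 and 237 CPM in the other cells (log2 change 2.79, SE 0.12, edgeR adjusted p = 0.0528). Few cells carried much of these sums. The median gated cell held 490 CPM of Lyz2, with quartiles at 151 and 1124 and the highest cell at 46217. Medians were 315 CPM in the neutrophil gate and 396 CPM in cells with Mpo and Cd34 outside both gates. Cst3 (cystatin C) stood at 2074, 3330 and 3360 CPM in the gated cells, against 747, 954 and 857 CPM in the other cells (log2 change 2.05, SE 0.12, edgeR adjusted p = 0.0528). Every gated sum lay above every other sum for both genes. Fcer1g, the shared gamma chain of Fc receptors, averaged 1835 ± 709 CPM in the gated cells and 280 ± 92.8 CPM in the other cells (SD, n = 3 mice). Ly6c2, the surface antigen of classical monocytes, averaged 3821 ± 745 CPM in the gated cells and 708 ± 126 CPM in the other cells. Its near-identical copy Ly6c1 makes the level of Ly6c2 uncertain.

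The larger changes at an unadjusted p under 0.05 were in less abundant genes. Aif1, an actin-binding gene of macrophages, had 120, 355 and 51.9 CPM in the gated cells of m4528, m605 and m606, against 7.99, 1.77 and 0.401 CPM in the other cells (log2 change 6.44, SE 0.99, edgeR adjusted p = 0.0841). Lgals3 had 1296, 1147 and 614 CPM in the gated cells, against 138, 43.7 and 7.47 CPM in the other cells (5.05 on the log2 scale, SE 0.69). The groups do not overlap for either gene. Between 3.60 and 5.27 on the log2 scale lay Ms4a4c, PYHIN1, Ctss, Ccl6, Upb1, Cfp (properdin), Ighm, Ctsh, Pld4, Klrb1f, Cybb and Rasa4. Cybb, the catalytic subunit of the phagocyte NADPH oxidase, had 285, 147 and 96.7 CPM in the gated cells, against 51.2, 8.75 and 8.51 CPM in the other cells (edgeR adjusted p = 0.0665). Spi1 averaged 355 ± 52.5 CPM in the gated cells and 134 ± 46.2 CPM in the other cells (log2 change 1.75, edgeR adjusted p = 0.0907).

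**Figure D5:**
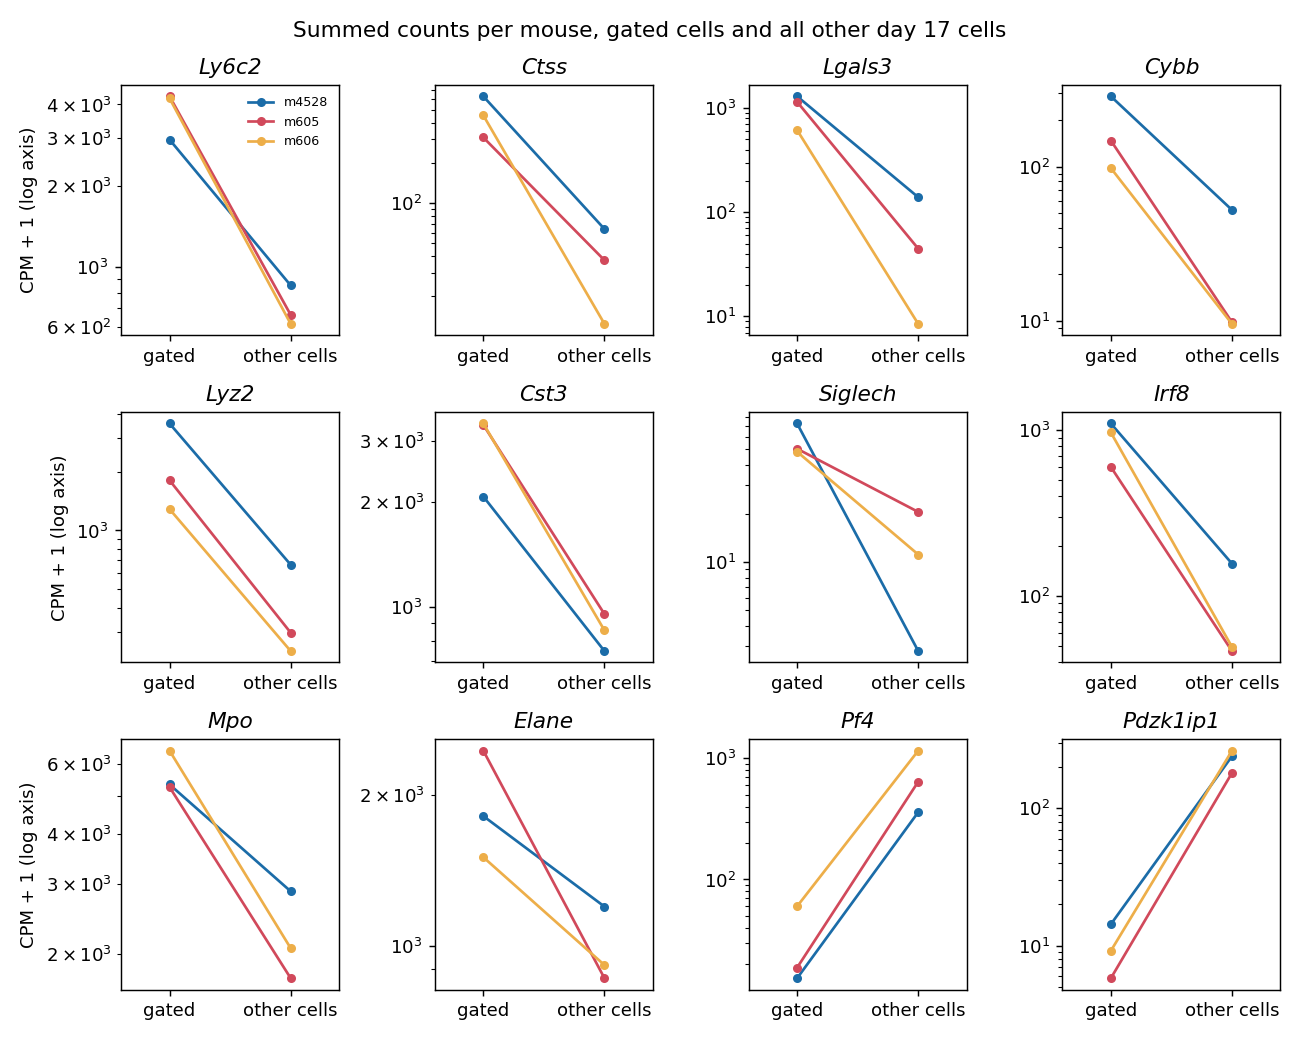
CPM + 1 of 12 genes (log axes) in the summed gated cells and in the summed other cells of mice m4528, m605 and m606, each mouse joined by a line. For 10 of the genes each mouse's line falls towards the other cells, and for Pf4 and Pdzk1ip1 it climbs.

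Dendritic genes were held by fewer cells and were less even between mice. Siglech had 71.5, 49.5 and 47.4 CPM in the gated cells of m4528, m605 and m606, against 1.79, 19.4 and 10.1 CPM in the other cells (log2 change 3.14, SE 0.98, edgeR adjusted p = 0.205). Few cells carried its sums, as 1, 3 and 2 gated cells passed 10 counts in m4528, m605 and m606. Flt3, the receptor for the dendritic growth factor Flt3 ligand, had 39.4, 29.1 and 94.3 CPM in the gated cells, against 21.7, 17.8 and 13.9 CPM in the other cells (edgeR adjusted p = 0.219). Each mouse was higher in the gated cells for both. Id2, which represses the plasmacytoid program, had 243, 207 and 18.8 CPM in the gated cells of m4528, m605 and m606, so that m606 lay far below the other mice, against 27.5, 7.96 and 6.34 CPM in the other cells. H2-Aa had 206, 87.7 and 0.744 CPM in the gated cells, against 62.7, 14.8 and 37.4 CPM in the other cells, and the groups overlap.

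Stem cell, megakaryocyte, erythroid and mast cell genes were lower in the gated cells, while neutrophil genes were mixed, with 6 of 16 higher and 3 lower at an unadjusted p under 0.05 (median log2 change 0.89). Of 15 stem cell genes 14 were lower at an unadjusted p under 0.05 (median log2 change -3.76), as were 8 of 10 megakaryocyte genes (-4.05), 7 of 13 erythroid genes (-3.12) and 8 of 9 basophil or mast cell genes (-3.20). Pf4 (platelet factor 4) had 14.3, 17.7 and 59.0 CPM in the gated cells of m4528, m605 and m606, against 359, 641 and 1156 CPM in the other cells (log2 change -4.40, SE 0.23, edgeR adjusted p = 0.0528). Pdzk1ip1, a stem cell marker, averaged 8.78 ± 4.30 CPM in the gated cells and 227 ± 42.2 CPM in the other cells (SD, n = 3 mice). The groups do not overlap for either gene, but both were picked for 1 direction in all 3 mice. SDPR, Cpa3 (mast cell carboxypeptidase), Gp1bb, Angpt1, Slc14a1, Lat, Ermap and Tal1 lay between -6.05 and -3.87 on the log2 scale. Kit was lower in each mouse (32.3 ± 13.7 CPM in the gated cells and 95.9 ± 27.9 CPM in the other cells). Cd34 was higher in each mouse (371 ± 87.9 CPM in the gated cells and 145 ± 78.7 CPM in the other cells, edgeR adjusted p = 0.0823).

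Markers of other cell types were not absent from the gated cells. The 17 neutrophil markers summed to 13619 to 16300 CPM in the gated cells, close to the 13515 to 14987 CPM of the 25 monocyte markers there, and to 6117 to 9218 CPM in the other cells. The erythroid markers summed to 446 to 1418 CPM in the gated cells, highest in m4528, and to 4799 to 9840 CPM in the other cells. Macrophage markers summed to 104 to 262 CPM in the gated cells and 22.9 to 70.4 CPM in the other cells, with C1qa and C1qc at 0 in the gated cells. The mature B cell list summed to 965 to 1438 CPM in the gated cells and 96.1 to 352 CPM in the other cells; most of it was Ighm, with 1025 ± 219 CPM in the gated cells, while Ms4a1 and Igkc were at 0. The part of these genes in the results was not tested.

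Cell cycle genes differed little between the groups. Of 26 S phase and 28 G2M genes, 3 each were higher and none lower at an unadjusted p under 0.05, with median log2 changes of 0.10 and 0.01. Mki67 averaged 173 ± 64.6 CPM in the gated cells and 199 ± 24.9 CPM in the other cells (SD, n = 3 mice), and its fitted change of 0.02 turned negative under 10 of the alternatives. The growth factor receptor genes Csf2ra and Csf2rb differed by 0.59 and 0.77 on the log2 scale with edgeR adjusted p of 0.503 and 0.726. Interferon response genes had 3 of 17 higher and 3 lower at an unadjusted p under 0.05 (median -0.86). In all 3 mice 3 were higher and 8 lower, beside 12% and 32.1% of all genes. The interferon response genes summed to 413, 261 and 358 CPM in the gated cells of m4528, m605 and m606, against 719, 316 and 378 CPM in the other cells, lower in each mouse. They summed to 321, 161 and 268 CPM in the neutrophil gate and 316, 186 and 206 CPM in the erythroid gate, below the gated cells of each mouse.

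The second comparison set the gated cells against the neutrophil gate, 76 day 17 cells in which 2 or more of the absent genes passed 10 counts (37 in m4528, 13 in m605 and 14 in m606, with 12 on the mixed plate). The gated cells had more dendritic, monocyte and cathepsin genes and less of some granule genes, but no gene passed. edgeR called 0 of 11132 genes (percent called 0), and none had an adjusted p below 0.368. Unadjusted, 831 genes had p under 0.05 (7.46%), 496 higher and 335 lower, of which 11 belong to the gate's rule. DESeq2 called 423. Of the 76 neutrophil gate cells 29 held at least 3 present genes, and of the rest 40 came from the 3 mice (21, 9 and 10 in m4528, m605 and m606). Against these 40 alone, picked on the gate's own genes and added as an alternative after the data were seen, edgeR called 3 genes, all higher. In m605 a single cell, the deepest of day 17, made up 37.1% of the neutrophil gate's sum, and it also held all 5 genes of the erythroid gate. It made up 45.4% of the m605 sum of the cells with at most 2 present genes. The erythroid markers of the neutrophil gate summed to 3753 CPM in m605, against 490 CPM in m4528 and 489 CPM in m606. Without that cell, likewise added later, edgeR called 0 genes against the gate and 22 against the remaining cells with at most 2 present genes, 15 higher and 7 lower.

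Ctss had 629, 309 and 453 CPM in the gated cells of m4528, m605 and m606, against 160, 17.9 and 22.1 CPM in the neutrophil gate (log2 change 3.55, edgeR adjusted p = 0.379). Against the 40 cells its log2 change was 7.54 (edgeR adjusted p = 0.0134). Those cells were picked on the gate's own genes, so that value is no independent evidence. Siglech averaged 56.2 ± 13.3 CPM in the gated cells and 0.357 ± 0.219 CPM in the neutrophil gate (edgeR adjusted p = 0.368). That mean rests on few cells, as 1, 3 and 2 gated cells passed 10 counts in m4528, m605 and m606. The groups do not overlap for Ctss or Siglech. Wfdc21, a secreted gene of the Wfdc family, averaged 1.06 ± 0.0541 CPM in the gated cells and 141 ± 76.0 CPM in the neutrophil gate (log2 change -6.72). Cd63, of granule membranes, averaged 33.1 ± 7.32 CPM in the gated cells and 437 ± 112 CPM in the neutrophil gate (log2 change -3.64). Mpo differed less, with 5328, 5249 and 6476 CPM in the gated cells of m4528, m605 and m606, against 7016, 5718 and 10470 CPM in the neutrophil gate (log2 change -0.33, edgeR adjusted p = 0.732). Ly6c2 averaged 3821 ± 745 CPM in the gated cells and 2960 ± 716 CPM in the neutrophil gate (log2 change 0.45, edgeR adjusted p = 0.714). Of 22 monocyte genes 17 were higher at an unadjusted p under 0.05, of 15 dendritic genes 11, and of 14 neutrophil genes 7 were lower, beside 4.46% of all genes higher and 3.01% lower. Of 18 pattern recognition and Fc receptor genes 5 were higher and 2 lower at that p. Of 6 NADPH oxidase genes none was higher or lower (median log2 change 0.28).

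The third comparison used cells with more than 10 counts of Mpo and of Cd34 in neither of the other gates (77 in m4528, 20 in m605, 35 in m606 and 14 on the mixed plate), meant as early granulocyte-monocyte cells. The data go against that name. Of the 146 cells 25 lay above 2000 CPM of Mpo, their median of 457 CPM was near the 363 CPM of the erythroid gate, and their Ly6c2 of 84.9 ± 2.74 CPM (SD, n = 3 mice) was no higher than the 133 ± 89.7 CPM there. They held stem cell genes at 2231 to 2480 CPM in sum and megakaryocyte genes at 1768 to 4863 CPM, against 219 to 359 CPM and 43.4 to 112 CPM in the gated cells. They are called the Mpo and Cd34 gate, and folds against them are in part folds against background.

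Against this gate edgeR called 172 of 11438 genes (1.5%), 103 higher (0.901%), 8 of them rule genes, and 69 lower (0.603%), and DESeq2 called 1324. With none of the absent genes allowed, 2 genes were called, a setting that keeps 38 of 77 gated cells and moves 26 into the Mpo and Cd34 gate. Unadjusted, 878 genes were higher (7.68%) and 815 lower (7.13%) at p under 0.05. The gated cells were higher in 11 of 23 monocyte genes, 6 of 22 lysosome genes, 5 of 11 neutrophil genes and 4 of 17 pattern recognition and Fc receptor genes, and lower in 7 of 10 megakaryocyte and 6 of 14 stem cell genes. The count fell whichever mouse was left out: 6 genes were called without m4528, 17 without m605 and 11 without m606. Of these, 6, 16 and 11 were among the 172. A test on fewer mice has less power, so the fall cannot show which changes rest on a single mouse. With the Mpo and Cd34 gate limited to its cells above 2000 CPM of Mpo (13, 5 and 4 cells in m4528, m605 and m606), added after the data were seen, 17 genes were called, 16 of them among the 172. The calls on granule, stem cell and megakaryocyte genes were among those lost.

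Ly6c2 had 2962, 4287 and 4214 CPM in the gated cells of m4528, m605 and m606, against 84.6, 82.3 and 87.7 CPM in the Mpo and Cd34 gate (log2 change 5.70, SE 0.18, edgeR adjusted p = 0.00361), and kept its call against the cells with high Mpo (5.55, adjusted p = 0.00154). Aif1, Ms4a4c, I830127L07RIK, Ctss and Fcer1g also kept theirs. Ctss averaged 463 ± 160 CPM in the gated cells and 15.1 ± 4.32 CPM in the Mpo and Cd34 gate (log2 change 5.17, edgeR adjusted p = 0.0114). Cpa3 was lower under both, with 8.52 ± 7.47 CPM in the gated cells and 422 ± 163 CPM in the Mpo and Cd34 gate (log2 change -5.61, edgeR adjusted p = 0.022, and -6.46 and 0.00216 against the cells with high Mpo). The groups do not overlap for any of these genes, but the genes were named because they were called, so this adds no evidence.

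Other genes were called against the whole gate and not against its cells with high Mpo, where the sums hold 4 to 13 cells. Elane averaged 1925 ± 485 CPM in the gated cells and 172 ± 65.4 CPM in the Mpo and Cd34 gate (log2 change 3.74, edgeR adjusted p = 0.0278; 2.26 and 0.364 against the cells with high Mpo). With none of the absent genes allowed, Elane had -0.36 and Ms4a3 -0.66 on the log2 scale, neither called. Cebpd, a transcription factor of myeloid cells, averaged 388 ± 114 CPM in the gated cells and 36.3 ± 9.58 CPM in the Mpo and Cd34 gate (log2 change 3.64, adjusted p = 0.0113; 1.54 and 0.325 against the cells with high Mpo). Il6ra, Selplg (the selectin ligand), Fcgr3, Clec12a, Ctsz, Ctsb and Cyba had log2 changes from 1.82 to 3.72 and adjusted p from 0.0112 to 0.0441 by edgeR. Against the cells with high Mpo their log2 changes were 1.46 to 3.38, with edgeR adjusted p from 0.131 to 0.546. Pf4 averaged 30.3 ± 24.9 CPM in the gated cells and 1742 ± 1122 CPM in the Mpo and Cd34 gate (log2 change -5.70, edgeR adjusted p = 0.00402; -0.55 and 0.973 against the cells with high Mpo). Gp1bb had a log2 change of -5.73 against the whole gate and of 1.49 against the cells with high Mpo.

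Promoter windows of genes high in the gated cells were searched for letters known from the factors named above: GAGGAAGT (Spi1), the composite motif of Spi1 with an interferon regulatory factor (GGAA and GAAA parted by any 2 bases) and TTGCNNAA (C/EBP factors), on both strands. RefSeq's table (GRCm38.p6, 250 bases before to 50 after each start) held 18 windows for 14 of 19 genes looked up, and these were the present genes, Siglech and genes called in the third comparison. GAGGAAGT was in 4 of the 18 windows (F13a1, Ctss and both overlapping Ly6c2 windows), beside 3.20% of all 32851 windows. The composite motif was in 1 (Cybb), beside 2.72%, and TTGCNNAA in 4, beside 10.8%. A match is a description and no binding site, and the windows of Ly86, Irf8, Ccr2 and Ms4a6c held none of the 3 motifs. The windows of F13a1, Ctss and Cybb are shown because each holds such a match, in capitals, near the start of a gene high in the gated cells. The match begins at base 15 after the start in F13a1, which is on the minus strand (chr13:37049164-37049463), and at 2 bases before it in Ctss, on the plus strand (chr3:95526536-95526835). It begins at base 4 after the start in Cybb, on the minus strand (chrX:9469275-9469574). The matches in Ctss and Cybb are on the opposite strand, and in these 3 windows no match overlaps another.
F13a1: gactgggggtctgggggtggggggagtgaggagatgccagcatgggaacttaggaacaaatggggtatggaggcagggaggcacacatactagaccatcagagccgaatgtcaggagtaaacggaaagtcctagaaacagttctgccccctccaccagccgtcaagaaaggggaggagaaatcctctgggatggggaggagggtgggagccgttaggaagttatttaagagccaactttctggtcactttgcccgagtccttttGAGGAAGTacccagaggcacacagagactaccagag
Ctss: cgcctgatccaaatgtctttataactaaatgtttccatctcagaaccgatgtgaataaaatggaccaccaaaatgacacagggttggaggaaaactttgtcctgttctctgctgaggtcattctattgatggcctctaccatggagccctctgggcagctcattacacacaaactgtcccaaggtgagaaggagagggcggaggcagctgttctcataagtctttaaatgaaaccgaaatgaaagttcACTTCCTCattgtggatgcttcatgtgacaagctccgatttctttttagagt
Cybb: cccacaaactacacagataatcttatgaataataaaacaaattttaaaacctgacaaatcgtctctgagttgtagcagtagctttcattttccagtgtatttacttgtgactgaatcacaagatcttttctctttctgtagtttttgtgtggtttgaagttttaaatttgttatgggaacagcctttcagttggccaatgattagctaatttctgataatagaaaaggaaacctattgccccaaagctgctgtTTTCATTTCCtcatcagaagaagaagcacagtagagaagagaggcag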

How the data were processed

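Both deposited tables hold counts per gene and well barcode, made by the authors from single cells of 3′ end Smart-seq2 plates. GRCm38 is the build named in the submitters' processing notes. No source used here gives the aligner, the counting or the use of molecular identifiers. Genes found in both tables (22842) and barcodes with at least 500 genes and 10000 counts were kept. No doublets were called, since cells were sorted into wells.

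Counts of gated and reference cells were summed per mouse, with at least 10 cells a sum (no minimum where a reference gate was narrowed), leaving out the mixed plate. Sums were compared with edgeR 4.0.16 in R 4.3.3 (quasi-likelihood test, TMM, filterByExpr, mouse as block, Benjamini-Hochberg adjustment over all genes tested), with DESeq2 1.42.0 and limma 3.58.1 (on log2 of CPM plus 1, computed from the deposited counts) as alternatives. An SE is the log2 change divided by the root of the test's F. Both sums of a mouse come from 1 animal, and their deviations from the group means correlated in each mouse (0.153 to 0.447 in the first comparison), so the block pairs them. With 3 mice, p-values rest on the spread between those few mice, moderated for each gene by the spread of the other genes. On simulated counts with changes of 2 on the log2 scale, edgeR recovered 22.6% in the first comparison (14100 genes, 1 false call), 20.2% in the second (11132 genes, 1 false call) and 14.1% in the third (11438 genes, 2 false calls). DESeq2 recovered 55.9% with 98 false calls in the first, 43.6% with 81 in the second and 46.7% with 63 in the third. The simulated mice shared 1 mean per gene, with no mouse effect, unlike the data. These rates therefore may not hold for the real sums.

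The gate, its lists and the tests were chosen with earlier results of these data known. Named genes were to be those called, in 1 direction in all 3 mice and at 100 CPM or more in the higher group, ranked by log2 change, with genes of each list. As the first and second comparisons had no calls, an unadjusted p under 0.05 replaced the call there. Where groups are said not to overlap, the share of all genes without overlap was not counted. The genes carried through the alternatives were narrowed to those named, also after results had been seen. Intervals are exact (scipy 1.17.1). Tables were handled with python 3.11.15, numpy 2.4.6 and pandas 2.3.3, and figures drawn with matplotlib 3.10.9.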

Additional observations from a re-analysis of the deposited data

Results flagged for a closer look

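The plate of mice m605 and m606 together, left out of the comparisons, held gated cells at a share of 13.98%, within the range of the plates of single mice. In 3 of the named genes m4528 pointed opposite to both m605 and m606 between gated and other cells, and that difference was not tested. On the scale of log2 of CPM plus 1, gated minus other cells, Dntt, the terminal transferase of lymphoid progenitors, differed by -0.9106 in m4528, 0.844 in m605 and 0.3358 in m606. Ly96, the partner of the lipopolysaccharide receptor, differed by -0.4396 in m4528, 0.2646 in m605 and 1.276 in m606. Mki67 differed by 0.29 in m4528, -0.7429 in m605 and -0.3606 in m606. Other genes divided the mice differently: H2-Aa was higher in the gated cells of m4528 and m605 and lower in those of m606.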

How the results depend on the processing

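The mean share of gated cells moved to 15.8% with at least 2 present genes, 6.78% with none of the absent genes and 8.52% with the minimum of 500 genes alone, and ran from 12.2% to 14.1% without 1 mouse. Gated cells with at least 1 Siglech count numbered 17. Against all other cells (0 calls), 74 genes were called with gate genes over 100 CPM, 1783 by DESeq2, 77 with no filter on low counts, 823 with the mixed plate as a further block, 989 by limma, 821 on thinned cells and 269 without neutrophil gate cells among the others, the last 2 of these added after the data were seen. Without the replicate block the calls were 124 in the first comparison, 5 in the second and 358 in the third. Against the neutrophil gate (0 calls), 2 were called with none of the absent genes, 423 by DESeq2, 14 with the mixed plate, 214 on thinned cells, 3 against cells with at most 2 present genes and 22 against these without the deepest day 17 cell. Leaving out any mouse, or the deepest cell alone, gave 0 calls in both. Against the Mpo and Cd34 gate (172 calls), the calls were 84 with gate genes over 20 counts, 110 and 63 with at least 2 and 4 present genes, 2 with none of the absent genes, 1324 by DESeq2, 268 unfiltered, 472 with the mixed plate, 590 by limma, 517 on thinned cells, 17 against cells over 2000 CPM of Mpo, and 6 to 17 without 1 mouse. Directions turned in 42 of the alternatives for single genes. With none of the absent genes, Elane was at -0.31, Ms4a3 -0.73, Csf2ra -0.56, Csf2rb -0.32, Il7r 0.32 and Irf7 1.04 in the first comparison, and Elane -0.36 and Ms4a3 -0.66 in the third. Il7r was at 2.12 with the mixed plate, 0.171 by limma and -3.17 to 2.53 without 1 mouse (0.165 without m605). Dntt was at -3.03 with 4 present genes and -0.111 to 0.937 without 1 mouse. H2-Aa was at -0.50 by limma and -0.999 to 2.48 without 1 mouse (-0.81 without m4528). Irf7 was at 0.061 without the block, 0.52 by limma, 0.98 on thinned cells and -0.65 to 0.35 without 1 mouse. Hdc was at 0.998 without neutrophil gate cells, and Gp1bb at 1.49 in the third comparison against cells over 2000 CPM of Mpo. Mcm2 was at -0.069 with gate genes over 100 CPM, -0.10 with 4 present genes, -0.19 with none of the absent genes, -0.12 unfiltered, -0.078 by limma, -0.034 on thinned cells, -0.065 without the deepest cell and -0.13 to 0.11 without 1 mouse. Mki67 was at -0.030 with gate genes over 100 CPM, -0.061 and -0.030 with 2 and 4 present genes, -0.23 with none of the absent genes, -0.11 unfiltered, -0.12 with the mixed plate, -0.0030 by limma, -0.064 without neutrophil gate cells, -0.062 without the deepest cell and -0.28 to 0.14 without 1 mouse. The cause was not tested.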
